A study of Mus musculus with 15 samples.

Results

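Imprinted genes of the mouse were examined for H3K27Ac, an acetylation of histone H3 found at active promoters and enhancers, and for H3K27Me3, the trimethylation laid down by the Polycomb repressive complex. The genes were 10 of 55413 annotated genes on chromosomes 1 to 19, X and Y (GENCODE release 21, GRCm38), namely Dlk1, Meg3, Igf2, H19, Peg3, Grb10, Plagl1, Snrpn, Mest and Peg10. They were chosen by name as known imprinted genes and not by any measured value, but with earlier results of these data known. A peak was assigned to a gene when it overlapped by at least 1 bp a window of 1000 bp either side of the start site of any annotated transcript (the promoter) or the gene body with 20 kb on each side. Of these genes 8 are protein-coding, and Meg3 and H19 are long noncoding RNAs.

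Genomic imprinting is the expression of a gene from only the maternal or only the paternal chromosome. At most known imprinted genes, though not all, it is set by DNA methylation laid down in the germ line. The methylated control regions are kept through the reprogramming of the early embryo by ZFP57, a zinc finger protein that binds a methylated hexamer. The insulator protein CTCF binds the unmethylated maternal copy of the control region between Igf2 and H19 and keeps enhancers away from Igf2. Many imprinted genes act on growth and on metabolism, and paternally expressed growth promoters such as Igf2 stand against maternally expressed growth restrainers such as Grb10. In islets the insulin pathway meets imprinting directly, since Igf2 adjoins the insulin gene Ins2 and Grb10 dampens signalling by the insulin receptor.

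The islets came from adult CBA male mice, an inbred strain, so that sequence reads do not separate the parental chromosomes. Mice ate a regular chow (RD), a high-fat diet (HFD), or the same high-fat diet with O304, a pan-AMPK activator, mixed into it (HFD-O304). Islets were picked by hand after collagenase digestion, pooled, fixed and immunoprecipitated with 1 antibody per mark, giving 2 replicates of each mark in each diet and 1 input sample per diet. The authors merged the 2 replicates before calling peaks without the input, so each mark and diet had 1 peak list, no spread between replicates was measured, and no difference between diets could be tested.

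Levels are given as pileup over background, the mean fragment coverage of a peak divided by the coverage that all kept fragments would give if spread evenly over the effective genome size set by the authors. The 95% intervals are exact Poisson intervals on the estimated number of fragments in the peak and cover counting error only. The H3K27Ac lists rested on 83773042 to 95218072 kept fragments and the H3K27Me3 lists on 54166902 to 74870300. The lowest peak that a list held was not the same in each, at 2.40 times the background for H3K27Ac on RD, 2.26 on HFD and 2.37 on HFD-O304, and at 2.74, 3.10 and 2.97 for H3K27Me3. Of the H3K27Me3 fragments 45.7% to 56.9% were duplicates, and 62.5% to 67.9% of the H3K27Me3 peaks were at least 50% repeat-masked. No peak at the imprinted genes was. H3K27Ac peaks stood at the promoters of 7, 8 and 7 of 12 islet endocrine markers in RD, HFD and HFD-O304, among them Ins2, Pdx1 and Mafa, and at 0 of 5 acinar, 0 of 3 endothelial, 0 of 3 immune and 0 of 3 mesenchymal markers in each diet. The ductal list had 0, 0 and 1 of 3, Krt19 in HFD-O304. Of the hormone genes, Gcg, Sst, Ppy and Iapp had none in any list. H3K27Me3 stood at the ductal Sox9 and the endothelial Kdr in each diet, at the mesenchymal Col1a1 in HFD and HFD-O304, and at the islet Nkx6-1 and the acinar Ptf1a in HFD-O304. Islets hold several cell types, and a mark in fewer cells cannot be told apart from less of the mark per cell.

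The promoters on which the results turn are shown first. RefSeq promoter windows of 300 bases (250 before to 50 after a start site, GRCm38.p6) were found for 8 of the 10 genes, and none for H19 and Peg10. Of the 5 windows shown, that of Peg3 lay under the H3K27Ac peak of every diet (the HFD peak touching only the end of the window) and that of Igf2 under the H3K27Me3 peak of every diet. The Grb10 window overlapped H3K27Ac peaks of HFD and HFD-O304, the Plagl1 window an H3K27Ac peak of HFD-O304, and the Mest window an H3K27Me3 peak of HFD. The last sequence is the whole 300 bp H3K27Ac peak of HFD at Snrpn. The windows are chr7:6730370-6730669 (Peg3, minus strand), chr7:142658755-142659054 (Igf2, minus strand), chr11:12037371-12037670 (Grb10, minus strand), chr10:13090582-13090881 (Plagl1, plus strand), chr6:30737800-30738099 (Mest, plus strand) and chr7:60004044-60004343 (Snrpn peak, minus strand). Each is written 5′ to 3′ on the strand of its gene, with capitals for TGCCGC, the hexamer of ZFP57, or GGNGGCAG, a core of the CTCF motif, on either strand.
Peg3: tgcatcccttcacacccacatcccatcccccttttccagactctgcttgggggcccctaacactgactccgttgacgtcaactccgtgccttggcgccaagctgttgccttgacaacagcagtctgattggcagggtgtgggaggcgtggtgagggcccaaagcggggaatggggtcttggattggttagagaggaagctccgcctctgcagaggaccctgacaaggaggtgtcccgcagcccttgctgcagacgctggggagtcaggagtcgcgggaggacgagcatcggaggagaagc
Igf2: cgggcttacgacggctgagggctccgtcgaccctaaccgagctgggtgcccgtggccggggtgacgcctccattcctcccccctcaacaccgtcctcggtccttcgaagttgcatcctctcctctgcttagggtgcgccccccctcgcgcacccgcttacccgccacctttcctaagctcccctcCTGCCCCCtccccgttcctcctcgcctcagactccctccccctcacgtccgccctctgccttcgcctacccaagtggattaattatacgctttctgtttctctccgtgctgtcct
Grb10: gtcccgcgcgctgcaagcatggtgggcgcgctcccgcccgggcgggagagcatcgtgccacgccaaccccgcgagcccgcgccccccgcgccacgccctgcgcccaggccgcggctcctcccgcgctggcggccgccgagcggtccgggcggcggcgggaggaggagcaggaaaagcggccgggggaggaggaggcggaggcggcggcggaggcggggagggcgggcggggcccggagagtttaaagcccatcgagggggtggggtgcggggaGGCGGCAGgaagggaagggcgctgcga
Plagl1: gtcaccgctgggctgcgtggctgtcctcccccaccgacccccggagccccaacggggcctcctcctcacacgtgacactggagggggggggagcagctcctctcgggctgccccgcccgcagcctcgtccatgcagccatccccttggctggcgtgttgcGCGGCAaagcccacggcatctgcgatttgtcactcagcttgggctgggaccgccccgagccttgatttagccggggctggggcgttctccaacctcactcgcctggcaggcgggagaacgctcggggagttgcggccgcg
Mest: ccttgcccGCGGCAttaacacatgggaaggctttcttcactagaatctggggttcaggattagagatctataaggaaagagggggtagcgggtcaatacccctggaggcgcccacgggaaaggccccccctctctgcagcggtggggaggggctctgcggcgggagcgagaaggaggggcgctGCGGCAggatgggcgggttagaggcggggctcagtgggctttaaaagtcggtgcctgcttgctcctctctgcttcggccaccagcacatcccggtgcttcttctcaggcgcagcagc
Snrpn peak: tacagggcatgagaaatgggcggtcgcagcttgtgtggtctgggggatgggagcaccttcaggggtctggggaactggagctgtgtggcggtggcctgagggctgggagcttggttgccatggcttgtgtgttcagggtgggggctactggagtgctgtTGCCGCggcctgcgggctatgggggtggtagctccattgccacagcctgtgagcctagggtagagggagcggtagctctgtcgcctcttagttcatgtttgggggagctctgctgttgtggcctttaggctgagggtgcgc

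These windows differed widely in composition. CpG sites, written as the number observed over that expected from the base content, were at 0.97 in the Grb10 window, with 45 CpG in 80% GC, and at 0.90 in the Igf2 window, with 24 CpG. The Peg3 window had 13 CpG and a ratio of 0.46. Over all 32841 windows the median ratio was 0.38 and the median GC content 52.7%. The ZFP57 hexamer was found in 7 of the 18 windows of the 8 genes and in 11.6% of all windows. Those 7 included 2 Mest windows that overlap almost wholly. The CTCF core was found in 2 of 18 windows, of Igf2 and Grb10, and in 12.6% of all. The YY1 motif GCCATNTT was in 0 of 18 and in 6.05% of all. A match of letters is no evidence of binding, and its absence only says that these letters are not in the window.

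The first comparison asked how many of the imprinted genes carried each mark at the promoter. H3K27Ac was found at 1 of 10 in RD, where 47.4% of the 21938 protein-coding genes carried it. In HFD it was found at 3 of 10, against 53.5% of protein-coding genes, and in HFD-O304 at 3 of 10, against 52.8%. The gene in RD was Peg3, those in HFD were Peg3, Grb10 and Snrpn, and those in HFD-O304 were Peg3, Grb10 and Plagl1. H3K27Me3 was found at 3 of 10 in RD against 8.03%, at 4 of 10 in HFD against 9.91%, and at 4 of 10 in HFD-O304 against 10.6%. Igf2 and Peg10 carried H3K27Me3 in each diet (6.25% of protein-coding genes), Mest in RD and HFD, Grb10 in HFD and HFD-O304, and Dlk1 in HFD-O304 alone. Read against the protein-coding genes, the counts lay below the background for H3K27Ac and above it for H3K27Me3 in each diet, without a test and with the 2 noncoding genes counted among the 10. When only peaks whose −log10 q reached 5 were kept, the H3K27Me3 counts were 0, 1 and 0 of 10, against 1.38%, 2.63% and 2.57% of protein-coding genes, so that in RD and HFD-O304 they no longer lay above the background. The H3K27Ac counts were then 0, 1 and 1 of 10 against 31.4%, 41.7% and 39.9%. A gene was counted if any of its start sites had a peak, and the 10 genes had 2 to 11 start sites each. With only the 5′ end of each gene model, H3K27Me3 was at 1, 2 and 2 of 10, against 6.63%, 8.46% and 8.88%. H3K27Ac was then at 1, 1 and 2 of 10, against 44.1%, 49.9% and 49.4%.

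**Figure D1:**
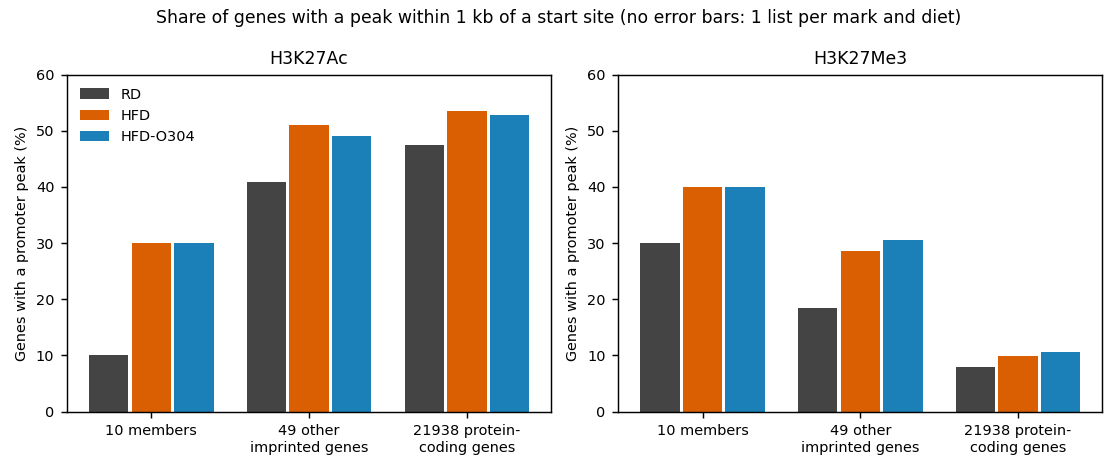
Share of genes (%) with a deposited peak within 1000 bp of any annotated start site, for H3K27Ac (left) and H3K27Me3 (right). There is 1 bar per diet for the 10 imprinted genes, the 49 other imprinted genes and all 21938 protein-coding genes. The 10 genes lie below all protein-coding genes for H3K27Ac in each diet (1, 3 and 3 of 10 against 47.4%, 53.5% and 52.8%) and above them for H3K27Me3 (3, 4 and 4 of 10 against 8.03%, 9.91% and 10.6%).

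Within the gene bodies and 20 kb of flank, H3K27Ac was found at 2 of 10 genes in RD (63.4% of protein-coding genes), at 4 in HFD (69.5%) and likewise at 4 in HFD-O304 (68%). H3K27Me3 was found there at 3 of 10 genes in RD (29.9%), at 4 in HFD (30.6%) and at 5 in HFD-O304 (36.4%). Without the repeat-masked peaks these H3K27Me3 counts were the same, while the shares of protein-coding genes were 17.8%, 19.4% and 21.5%. The wider window added H3K27Ac at Igf2 in each diet, from peaks at the neighbouring Ins2, and H3K27Me3 at Mest in HFD-O304. In all, 37 peaks in 22 regions lay at 8 of the genes, 11 of H3K27Ac in 6 regions and 26 of H3K27Me3 in 16 regions. Of the 6 H3K27Ac regions 2 held a peak in every diet and 3 in 1 diet, while 50.5% and 31.8% of all H3K27Ac regions joined in the same way did. Of the 16 H3K27Me3 regions 3 held a peak in every diet and 9 in 1 diet, against 34.3% and 45.6% of all. By diet there were 8 peaks on RD, 13 on HFD and 16 on HFD-O304. The lists themselves grew in that order, from 31831 peaks of both marks on RD to 37112 on HFD and 42354 on HFD-O304, so that the genes held 0.251, 0.35 and 0.378 of every 1000 peaks. A deposited −log10 q of at least 5 was reached by 7 of the 37. A further limit is that 7 of the 37 stood below the lowest peak of another diet's list and could not have been listed there at that height.

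**Figure D2:**
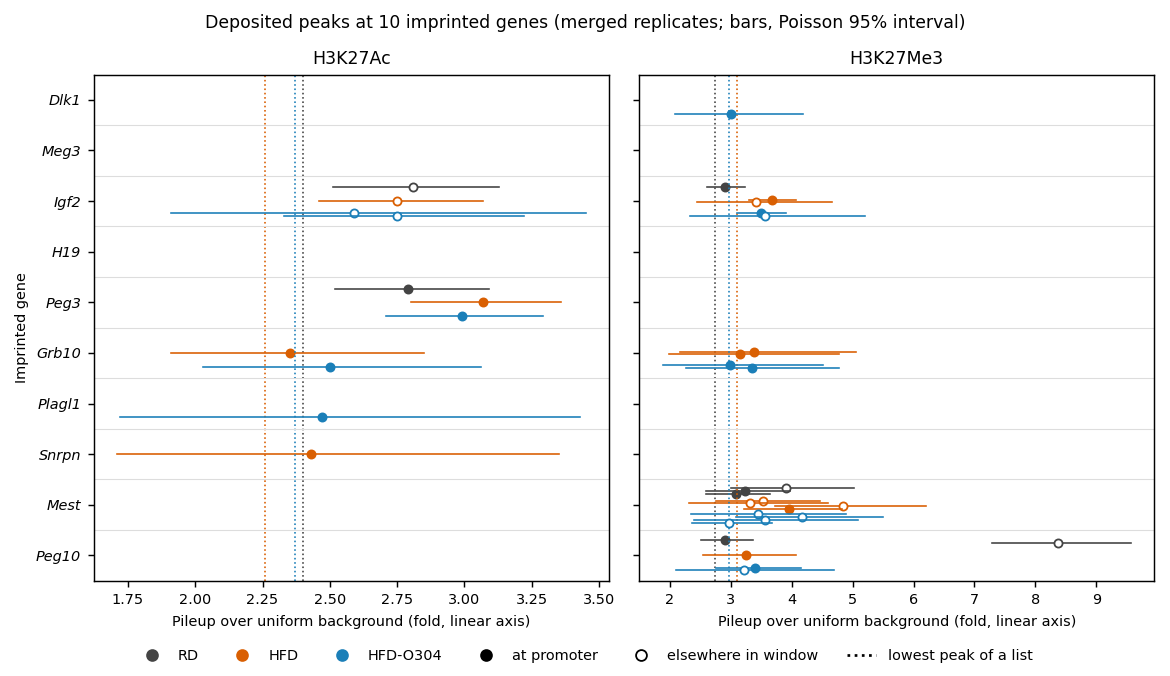
Every deposited peak at the 10 imprinted genes, with pileup over uniform background (fold, linear axis) on the x axis and the gene on the y axis, for H3K27Ac (left) and H3K27Me3 (right). Points are peaks of merged replicates, bars are 95% Poisson intervals, and dotted lines are the lowest peak of each list. H3K27Ac peaks lie between 2.35 and 3.07, most H3K27Me3 peaks lie close to the dotted lines, and 1 RD peak downstream of Peg10 stands apart at 8.37.

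Peg3, a paternally expressed zinc finger protein, was the only one of the 10 with H3K27Ac at its promoter in every diet, as 45.8% of protein-coding genes had. Its pileup over background was 2.79 (2.52 to 3.09) on RD, 3.07 (2.80 to 3.36) on HFD and 2.99 (2.71 to 3.29) on HFD-O304. The 3 intervals overlapped, which does not show that the diets were alike. The −log10 q was 4.06 on RD, 6.93 on HFD and 5.42 on HFD-O304. At a cutoff of 5 the RD peak was therefore not kept. Peg3 lies on chromosome 7 at 6703892 to 6730431, on the minus strand, and its peaks were long, at 3056 bp, 2954 bp and 3141 bp. They were longer than 97.9%, 95.6% and 96.7% of the promoter peaks of protein-coding genes in the same lists, while in height they were below the median, with 20%, 38.3% and 29% of those peaks lower. They reached into the gene. In RD and HFD-O304 they covered the start sites of Peg3 and of Usp29, the paternally expressed ubiquitin-specific protease that is transcribed away from Peg3 on the other strand, and in HFD the peak ended 28 bp from a Peg3 start site. The nearest H3K27Me3 peak was 66.3 kb from Peg3 in RD and 112 kb away in HFD and HFD-O304. The same pattern, H3K27Ac in each diet and H3K27Me3 in none, was found at 9384 protein-coding genes (42.8%).

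Across the 263 kb from Peg3 to the end of Usp29, RD and HFD each had the promoter peak alone. HFD-O304 had 6 H3K27Ac peaks there, covering 7474 bp, and 5 of them lay inside Usp29 at 95.1, 136, 151, 154 and 204 kb from the start of Peg3. The region thus held 0.38, 0.38 and 2.28 H3K27Ac peaks per 100 kb on RD, HFD and HFD-O304, where the whole lists held 0.593, 0.786 and 0.738. The pileup over background of the 5 was 2.41, 2.64, 2.59, 2.39 and 2.37 in that order. All 5 were above the lowest HFD peak of 2.26, while those at 2.39 and 2.37 were under the lowest RD peak of 2.40. Their −log10 q lay between 2.12 and 3.44, under the median of 5.01 of that list.

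Igf2, the insulin-like growth factor that is expressed from the paternal chromosome, carried H3K27Me3 at its internal promoters in every diet. It lies on chromosome 7 at 142650766 to 142666816 on the minus strand. The pileup over background was 2.91 (2.61 to 3.23) on RD, 3.67 (3.30 to 4.07) on HFD and 3.49 (3.10 to 3.91) on HFD-O304, over 2981 bp, 3300 bp and 2733 bp. The RD interval did not overlap the HFD interval. However, the RD value was below the lowest peak of the HFD and HFD-O304 lists, and the median promoter peak of all protein-coding genes was likewise lower in RD (3.06) than in HFD (3.61) and HFD-O304 (3.46). Against those medians the Igf2 peak ranked above 23.4% of promoter peaks on RD, 55.9% on HFD and 53.7% on HFD-O304. It was among the longer ones, exceeding 93.4%, 86.9% and 84.6% of promoter peaks in length.

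The Igf2 peak also covered a start site of Igf2os, an antisense transcript of the locus, so the mark cannot be assigned to Igf2 alone. The GC content of the Igf2 peak was 65.9%, 64.2% and 65.3%. A second H3K27Me3 peak lay in an intron, 2.72 kb from the 5′ end of the gene model in HFD and 2.67 kb in HFD-O304, at 3.42 (2.44 to 4.66) over 401 bp in HFD and at 3.56 (2.33 to 5.21) over 240 bp in HFD-O304. None was listed there in RD. No H3K27Ac peak lay in Igf2 itself.

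The H3K27Ac peaks counted in the Igf2 window lay at or near Ins2, an insulin gene of the beta cell and its neighbour upstream. In RD the peak covered 2579 bp at 2.81 (2.51 to 3.13), in HFD 2293 bp at 2.75 (2.46 to 3.07), and both lay across an Ins2 start site. HFD-O304 had 1244 bp at 2.75 (2.33 to 3.22), ending 60 bp from an Ins2 start site, and a separate stretch of 402 bp at 2.59 (1.91 to 3.45). The intervals of the 3 diets overlapped, and the covered length was the shortest in HFD-O304.

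H19, the maternally expressed noncoding RNA of the same domain (chromosome 7, 142575529 to 142578143), had neither mark. The nearest H3K27Ac peak was at Mrpl23, 41.8 kb away on RD, 41.7 kb on HFD and 41.9 kb on HFD-O304. The nearest H3K27Me3 peak was that of Igf2, 80.1 to 80.4 kb away. Over the 91 kb from H19 to Igf2 there was no H3K27Ac peak in any diet, at the sensitivity of lists whose lowest peak stood at 2.26 to 2.40 times the background and that held 0.593 to 0.786 H3K27Ac peaks per 100 kb over all chromosomes.

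**Figure D3:**
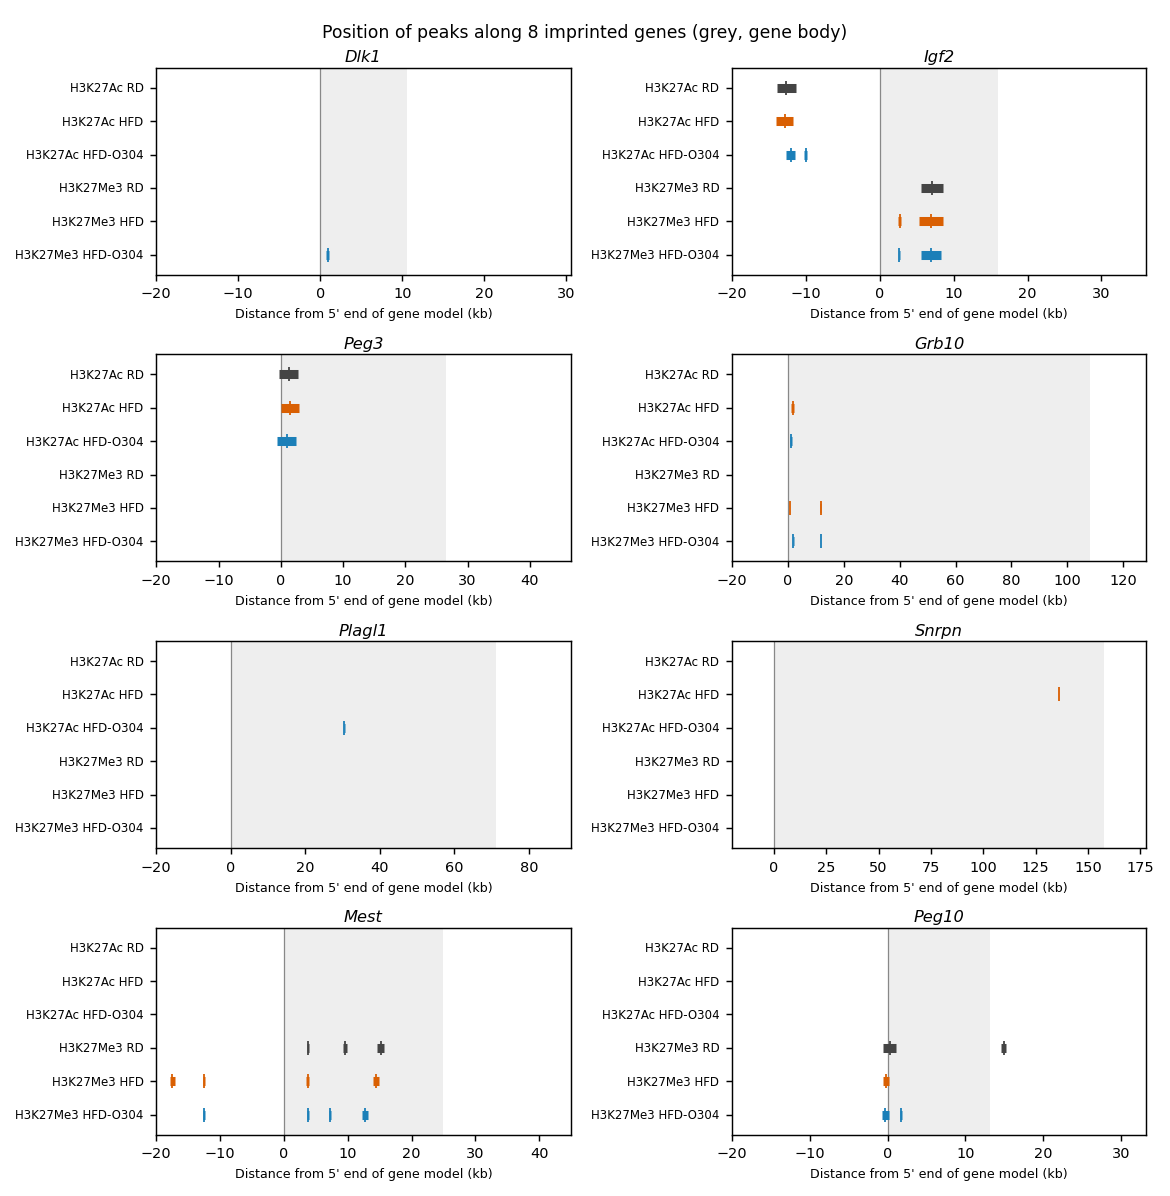
Position of the deposited peaks at the 8 imprinted genes that had any, with the distance from the 5′ end of the gene model (kb, positive into the gene) on the x axis and the 6 lists as rows. Bars span the peaks, short vertical ticks mark their centres and grey shading marks the gene body. Peg3 has H3K27Ac over its start in each diet, Igf2 has H3K27Me3 inside the gene and H3K27Ac upstream at Ins2, and a Mest peak 3.73 to 3.77 kb into the gene repeats in each diet.

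Dlk1, a paternally expressed membrane ligand with EGF repeats that restrains adipocyte differentiation, and Meg3, the maternally expressed noncoding RNA beside it, were nearly bare of both marks. Dlk1 (chromosome 12, 109452823 to 109463336) had an H3K27Me3 peak in HFD-O304 only, of 376 bp at 3.01 (2.09 to 4.19), over sequence of 70.5% GC with a CpG ratio of 0.77. With a −log10 q of 2.32 it ranked above 2.85% of the promoter peaks of that list in height, and it stood below the lowest HFD peak of 3.10. It was above the lowest RD peak of 2.74. Meg3 (chromosome 12, 109541001 to 109571726) had no peak in its window in any list, and the nearest were 178 to 520 kb away for H3K27Ac and 87.1 to 330 kb away for H3K27Me3, the nearest H3K27Me3 being the Dlk1 peak of HFD-O304. Over the 828 kb from Dlk1 to Dio3 there were 0, 2 and 2 H3K27Ac peaks in RD, HFD and HFD-O304. H3K27Me3 had 3, 4 and 7 peaks there, of which 3, 4 and 4 were repeat-rich. That is 0.362, 0.483 and 0.845 H3K27Me3 peaks per 100 kb, against 0.557, 0.554 and 0.794 over the whole lists. A pattern of no promoter peak in any list, as at Meg3 and H19, was found at 8079 protein-coding genes (36.8%).

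Grb10, the adaptor protein that dampens insulin and IGF receptor signalling and is expressed from the maternal chromosome in most tissues, was the only one of the 10 genes with both marks at its promoters. It lies on chromosome 11 at 11930508 to 12038683, on the minus strand. Both marks were present together at 0 of 10 genes on RD, 1 on HFD and 1 on HFD-O304, while 2.53%, 3.88% and 3.43% of protein-coding genes had both. H3K27Ac stood at 2.35 (1.91 to 2.85) over 861 bp in HFD and at 2.50 (2.03 to 3.06) over 838 bp in HFD-O304. Both were among the weakest promoter peaks of their lists, above 1.47% and 3.45% of them in height. The HFD value was below the lowest peak of the RD and HFD-O304 lists, and the HFD-O304 value was above the lowest RD peak of 2.40. In RD the nearest H3K27Ac peak was 40.1 kb from the gene.

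H3K27Me3 at Grb10 came in short stretches close to the length of a fragment, the shortest that the caller allows. In HFD there were 2 of 242 bp each, at 3.38 (2.16 to 5.05) and 3.15 (1.98 to 4.77). In HFD-O304 there were stretches of 242 bp at 2.99 (1.88 to 4.52) and of 295 bp at 3.35 (2.27 to 4.78). They held an estimated 22 to 30 fragments each, and the value of 2.99 was below the lowest HFD peak. A first site, 11.75 to 11.81 kb into the gene, recurred in both diets. The second was close to the 5′ promoter in each but at different places, so that the H3K27Ac peak of HFD overlapped the H3K27Me3 peak of HFD-O304 and the reverse. Within a diet the marks did not overlap, lying 348 bp apart in HFD and 394 bp apart in HFD-O304. The pattern of Grb10 over the 6 lists was shared by 44 protein-coding genes (0.201%).

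Plagl1 and Snrpn each had 1 short H3K27Ac peak in 1 diet. Plagl1, a paternally expressed zinc finger transcription factor (chromosome 10, 13060504 to 13131694), had it in HFD-O304 at 2.47 (1.72 to 3.43) over 316 bp across an internal start site 30.5 kb into the gene model. Snrpn, which encodes a protein of the small nuclear ribonucleoproteins (chromosome 7, 59982495 to 60140219, minus strand), had it in HFD at 2.43 (1.71 to 3.35) over 300 bp. The start site nearest to it was that of Snurf, the upstream reading frame of the same transcript, at 706 bp. Only 2.37% and 1.31% of promoter peaks of protein-coding genes were shorter in those lists. Both values were above the lowest peak of each H3K27Ac list, but the intervals reached well below those limits. No H3K27Me3 peak lay in either window, and the nearest was 22.5 to 56.7 kb away in each diet, in repeat-masked sequence.

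Mest, a paternally expressed member of the alpha/beta hydrolase family (chromosome 6, 30723547 to 30748465), had the most H3K27Me3 peaks, with 3 on RD, 4 on HFD and 4 on HFD-O304, and no H3K27Ac peak. The strongest lay in an intron 3.73 to 3.77 kb into the gene model and recurred in each diet, at 3.91 (3.0 to 5.02) on RD, 4.85 (3.73 to 6.20) on HFD and 4.17 (3.09 to 5.50) on HFD-O304. It measured 393 bp, 450 bp and 390 bp, and its CpG ratio of 0.17 to 0.21 was low for sequence of 65.1% to 66.7% GC. The 3 intervals overlapped. Weaker peaks lay around it. HFD had 686 bp at 3.53 and 371 bp at 3.31 upstream of the gene. HFD-O304 had 292 bp at 3.44 upstream and 272 bp at 3.56 in an intron. The upstream peaks of 371 bp and 292 bp overlapped and were the same site in both diets. The start site nearest to that site was of Gm14528, and that nearest to the 686 bp peak was of Cep41.

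At the promoters of Mest RD and HFD shared 1 H3K27Me3 region, in which their peaks overlapped by 237 bp. RD had peaks of 694 bp at 3.24 (2.60 to 3.98) and of 1106 bp at 3.09 (2.59 to 3.65), the latter 147 bp downstream of a start site and in the shared region. HFD had 860 bp at 3.96 (3.22 to 4.83) across the start site whose window is printed above. HFD-O304 had no peak within 1000 bp of a start site, but a peak of 898 bp at 2.97 (2.36 to 3.68) lay 12.67 kb into the gene model, upstream of that promoter and at an antisense transcript. The RD peak at 3.09 and the HFD-O304 peak at 2.97 were below the lowest HFD peak of 3.10. With 2000 bp either side of a start site Mest was counted in HFD-O304 too. The pattern of Mest, H3K27Me3 in RD and HFD and no other promoter peak, was found at 26 protein-coding genes (0.119%).

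Peg10, a protein derived from a retrotransposon and expressed from the paternal chromosome (chromosome 6, 4747306 to 4760517), carried H3K27Me3 over its promoter in each diet. The pileup over background was 2.91 (2.51 to 3.36) over 1618 bp on RD, 3.25 (2.55 to 4.07) over 797 bp on HFD and 3.40 (2.75 to 4.16) over 905 bp on HFD-O304. The promoter is shared with Sgce, the epsilon-sarcoglycan gene on the other strand, whose start sites the same peaks covered. The 3 intervals overlapped, and the RD value was below the lowest peak of the other lists. A further peak of 268 bp at 3.21 (2.1 to 4.69) lay in an intron of Peg10 in HFD-O304. The nearest H3K27Ac peak was 142 to 143 kb from Peg10 in each diet. Igf2 and Peg10 had the same pattern over the 6 lists, as did 694 protein-coding genes (3.16%).

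The highest peak at any of the 10 genes lay downstream of Peg10 and in RD alone. It spanned 639 bp at chromosome 6, 4761899 to 4762537, at a pileup over background of 8.37 (7.29 to 9.57) and a −log10 q of 44.53. The sequence was 3.76% repeat-masked, with 51.3% GC. In HFD and HFD-O304 no peak was listed there, although a peak of 3.10 or 2.97 would have sufficed. Whether both RD replicates carried it cannot be told from the merged list. The peaks were called without the input, so copy number and mapping at this sequence were not tested and the value is coverage over an even background, not over input. The nearest annotated start site was 8363 bp away.

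**Figure D4:**
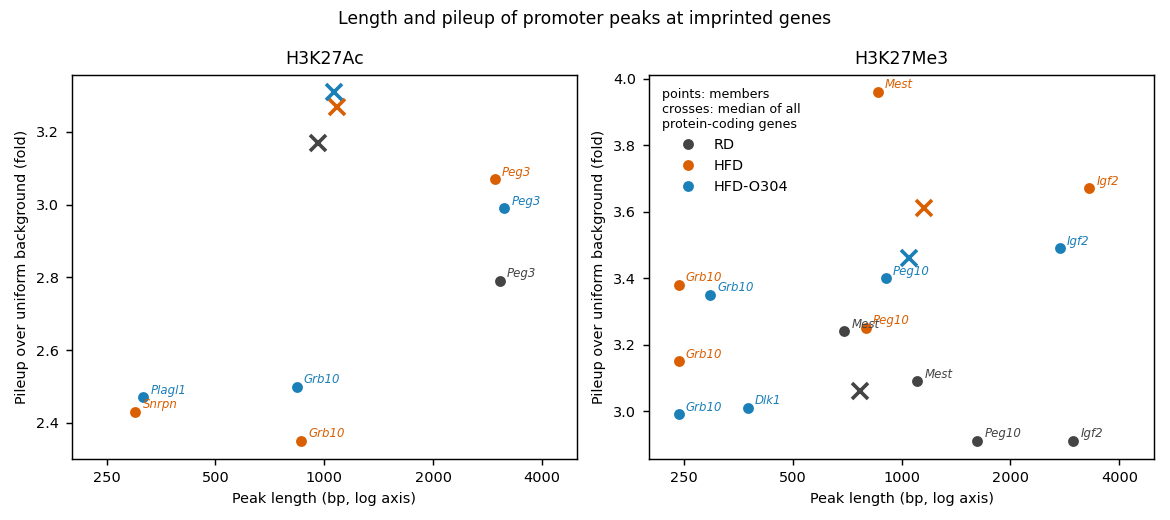
Length (bp, log axis) against pileup over uniform background (fold) of each promoter peak at the imprinted genes, for H3K27Ac (left) and H3K27Me3 (right). Points are single peaks labelled by gene and coloured by diet, and crosses are the medians of promoter peaks of all protein-coding genes in the same list. Peg3 peaks are 2954 to 3141 bp long at 2.79 to 3.07, against medians of 3.17 to 3.31, while the H3K27Ac peaks of Grb10, Plagl1 and Snrpn lie at 2.35 to 2.50.

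The second comparison asked at which imprinted genes a promoter peak was listed in a diet and not in another. For H3K27Ac, 2 genes had a peak in HFD and not in RD (Grb10 and Snrpn, 6.94% of protein-coding genes) and 0 the reverse (0.871%). In HFD-O304 and not in HFD there was 1, Plagl1 (2.43%), and in HFD and not in HFD-O304 there was 1, Snrpn (3.05%). Between HFD-O304 and RD, 2 genes had a peak in HFD-O304 alone (Grb10 and Plagl1, 6.56%) and 0 in RD alone (1.11%). For H3K27Me3, 1 gene had a peak in HFD and not in RD (Grb10, 3.21%) and 0 the reverse (1.34%). In HFD-O304 and not in HFD there was 1, Dlk1 (2.13%), and the reverse held for 1, Mest (1.48%). Against RD, 2 genes had a peak in HFD-O304 alone (Dlk1 and Grb10, 3.85%) and 1 in RD alone (Mest, 1.32%). These pairs of lists share a diet, so their counts are not independent.

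Beyond the 10, 49 other imprinted genes or genes of imprinted clusters were listed, and all were found in the annotation. H3K27Ac was at the promoter of 20, 25 and 24 of them in RD, HFD and HFD-O304 (40.8%, 51% and 49%), against the 47.4%, 53.5% and 52.8% of protein-coding genes. H3K27Me3 was at 9, 14 and 15 (18.4%, 28.6% and 30.6%), against 8.03%, 9.91% and 10.6%. Most of these H3K27Me3 peaks were weak. At a −log10 q of at least 5 the mark was kept at Klf14 alone in RD and at Phlda2, Zdbf2 and Klf14 in HFD. In HFD-O304 it was kept at Klf14 and Sfmbt2. Of protein-coding genes 1.38%, 2.63% and 2.57% kept it in RD, HFD and HFD-O304. These counts are not all separate from each other or from the 10. Sgce was counted from the H3K27Me3 promoter peaks of Peg10, and Gnas and Nespas from 1 H3K27Me3 peak in HFD-O304. Usp29 shared the H3K27Ac promoter peaks of Peg3 in RD and HFD-O304. The list of 49 was drawn from general knowledge, with earlier results of these data known, and no test was made. Of the 49, 7 carried H3K27Me3 in each diet, namely Cdkn1c, Phlda2, Zdbf2, Sgce, Sfmbt2, Klf14 and Begain (14.3%, against 6.25% of protein-coding genes). A further 10 carried it in 1 or 2 diets, namely Kcnq1, Ascl2, Gnas, Nespas, Calcr, Magel2, Mkrn3, Peg12, Dio3 and Kcnk9 (20.4%, against 6.66%).

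The highest of these was Klf14, a maternally expressed transcription factor gene near Mest. Its H3K27Me3 stood at 4.23 (3.65 to 4.88) on RD, 5.26 (4.64 to 5.93) on HFD and 6.27 (5.65 to 6.94) on HFD-O304. The median promoter peak of protein-coding genes in these lists stood at 3.06, 3.61 and 3.46, and no difference between diets was tested. The longest peak was that of Sfmbt2, a Polycomb-related gene, at 3552 bp, 5818 bp and 4372 bp. It covered start sites of Sfmbt2 and Gm13261 in HFD and HFD-O304 and of Gm13261 alone in RD. The RD value of 3.04 was below the lowest HFD peak. Zdbf2, a zinc finger gene, carried both marks in each diet, with H3K27Ac at 2.47 (2.01 to 3.01), 3.18 (2.64 to 3.80) and 3.94 (3.36 to 4.60) in RD, HFD and HFD-O304. Its H3K27Me3 stood at 2.81, 4.16 and 3.33. The RD value was below the lowest H3K27Me3 peak of the other diets, and the HFD peak lay over a start site of Gm11608. Cdkn1c, the maternally expressed inhibitor of the cell cycle, had H3K27Me3 in each diet and H3K27Ac in HFD (2.45) and HFD-O304 (2.44) over part of the same sequence. Magel2 and Mkrn3, of the Snrpn domain, had H3K27Me3 at 2.91 and 3.34 in RD and HFD-O304, and at 3.39 and 3.24 in HFD and HFD-O304, while Peg12 had it at 3.31 in HFD and 3.14 in HFD-O304. In the Dlk1 domain Dio3, the deiodinase that inactivates thyroid hormone, had it at 3.27 over 2058 bp in HFD-O304 alone, as Dlk1 had.

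H3K27Ac was present in some diets and not in others at 7 of the 49 (14.3%), against 10.5% of protein-coding genes. Cdkn1c, Kcnq1, Copg2 and Cobl had it in HFD and HFD-O304 and not in RD. Airn and Snurf had it in HFD alone, the latter from the peak counted at Snrpn, and Ddc had it in RD (2.82) and HFD-O304 (2.50). Copg2, which overlaps the end of Mest on the other strand, stood at 3.42 (2.84 to 4.08) in HFD and at 4.11 (3.40 to 4.91) with O304, both well above the lowest RD peak. Both marks were found at 1, 4 and 3 of the 49 (2.04%, 8.16% and 6.12%) on RD, on HFD and with O304. Of protein-coding genes 2.53%, 3.88% and 3.43% had both, so that on RD the count was at the background. The HFD and HFD-O304 counts include Gnas, whose marks lay at different promoters and did not overlap. H3K27Ac was centred 45.00 and 44.78 kb from its gene start in HFD and HFD-O304, and H3K27Me3 14.49 and 0.81 kb. Protein-coding genes were counted by the same rule.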

How the data were processed

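ChIP-seq of H3K27Ac and H3K27Me3 in pooled CBA islets comprised 12 ChIP samples, 2 per mark and diet, and 3 inputs, grouped by their titles. Paired reads were mapped by the authors to GRCm38 (Ensembl 96) with bowtie2, replicates were merged, and broad peaks were called with MACS 2.1.2. Per the file headers the q-value cutoff was 0.01, 1 fragment was kept per position, and neither a control nor a local background was used. The pileup deposited by the authors is the mean coverage of a peak by fragments. MACS set it against a flat background to give the deposited −log10 q and the deposited fold enrichment, the ratio of pileup plus 1 to background plus 1. Per the file headers the kept fragments numbered 54166902 to 95218072.

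Here the pileup was divided by kept fragments × fragment size / effective genome size, and fragments per peak were estimated as pileup × length / fragment size for exact Poisson intervals (Python 3.11.15, scipy 1.17.1). Overlaps with GENCODE release 21 were counted from 1 bp and tested on simulated data. All 21938 protein-coding genes were the background. The 10 members, the lists of other imprinted genes and of markers, and the motifs were chosen with earlier results of these data known. The genes named were the 10 members, other imprinted genes with H3K27Me3 at the promoter or with H3K27Ac differing between diets, Ins2, and genes starting under a counted peak. Repeats and GC were read from the C57BL/6J reference, not CBA. Input samples were not used.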

Additional observations from a re-analysis of the deposited data

How the results depend on the processing

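With 1 merged list per mark and diet, no value rests on replicates and no direction was tested. No paired analysis was possible because each deposited list holds its pair of replicates together, which also meant that neither replicate could be omitted. Of 153 counts recomputed under 11 alternatives, 101 stayed within 1.5 times the count reported and 52 did not. The counts given below are mainly those that did not. Leaving out repeat-rich peaks moved none of the counts. However, the share of protein-coding genes with H3K27Me3 in the wider window then fell from 29.9%, 30.6% and 36.4% to 17.8%, 19.4% and 21.5%. Of 58 single values, 56 moved by less than their interval. The Igf2 H3K27Me3 peak of HFD, counted at the promoter and in the wider window, read 3.25 as the deposited fold in place of 3.67.

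At a −log10 q of at least 5, the promoters with H3K27Ac were 0, 1 and 1 in RD, HFD and HFD-O304 (31.4%, 41.7% and 39.9% of protein-coding genes) and those with H3K27Me3 were 0, 1 and 0 (1.38%, 2.63% and 2.57%), no longer above the background in RD and HFD-O304. In the wider window the counts were 0, 1 and 1 for H3K27Ac (46.4%, 56.6% and 54.8%). For H3K27Me3 they were 2 in RD (Mest and Peg10), 1 in HFD and 1 in HFD-O304 (11.6%, 11.6% and 14.1%). No gene had both marks at the promoter (0 in HFD and 0 in HFD-O304, against 0.552% and 0.515%). H3K27Ac presence then differed at 1 gene, Peg3, between RD and HFD (12.5%) and between RD and HFD-O304 (12%). The RD peak of Peg3 was not kept. Between HFD and HFD-O304 it differed at 0 genes (8.01%). H3K27Me3 presence differed at 1 gene, Mest, between RD and HFD (2.08%) and between HFD and HFD-O304 (2.12%). Between RD and HFD-O304 it differed at 0 genes (1.95%). With lists of equal size, H3K27Ac stood at 1 promoter in HFD and 1 in HFD-O304 (Peg3, against 49.7% and 49.9% of protein-coding genes). In the wider window it stood at 2 and 2 genes (65.2% and 64.8%). Both marks were then at 0 promoters in HFD and 0 in HFD-O304 (2.72% and 2.03%). H3K27Ac differed at 0 genes between RD and HFD (6.61%), HFD and HFD-O304 (6%), and RD and HFD-O304 (6.93%). H3K27Me3 differed at 1 gene between HFD and HFD-O304 (Mest, 4.03%). With a common fold cutoff, H3K27Me3 was at 1 promoter in RD (Mest, 4.78%) and both marks at 0 in HFD (3.41%). Between RD and HFD, H3K27Ac then differed at 1 gene (7.16%) and H3K27Me3 at 3 (6.08%). Between HFD and HFD-O304, H3K27Me3 differed at 1 (3.58%).

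Using only the 5′ end of each gene model left H3K27Ac at 1 promoter in HFD (49.9% of protein-coding genes). H3K27Me3 was then at 1, 2 and 2 in RD, HFD and HFD-O304 (6.63%, 8.46% and 8.88%). Both marks were at 0 in HFD (2.84%) and 0 in HFD-O304 (2.39%). H3K27Ac then differed at 0 genes between RD and HFD (7.44%), 1 between HFD and HFD-O304 (5.17%) and 1 between RD and HFD-O304 (7.42%). H3K27Me3 differed at 1 in the last pair (4.45%). With 500 bp either side, H3K27Ac differed at 1 gene between RD and HFD (7.84%) and at 1 between HFD and HFD-O304 (5.33%). With 2000 bp H3K27Me3 differed at 1 between HFD and HFD-O304 (4.12%). In RD, H3K27Ac in the gene body was at 1 gene with a flank of 0 kb (49.6%), 1 with 5 kb (54.3%) and 5 with 50 kb (73.2%). H3K27Me3 was at 5 with 50 kb (46.5%). Counting only peaks nearest to the gene's own start site, H3K27Ac was at 1 gene in RD and 2 in HFD. Settings that keep fewer peaks lose genes by their construction, and other causes were not tested. The lowest peak held differed between lists, so a peak missing from a list may be present below its limit. Whether depth set that limit was not tested.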
